A study of Mus musculus with 4 samples.

Results

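Heterogeneous nuclear ribonucleoproteins (hnRNPs) are abundant nuclear RNA-binding proteins. The mRNA levels of 10 genes that encode them (*Hnrnpa1*, *Hnrnpa2b1*, *Hnrnpab*, *Hnrnpc*, *Hnrnpd*, *Hnrnpf*, *Hnrnph1*, *Hnrnpk*, *Hnrnpl* and *Hnrnpu*) were examined in old and young mouse muscle. The genes were chosen by symbol, among 20340 gene labels with a value in all samples, and loci that carried the same symbol were summed. Tibialis anterior (TA) muscle, a fast hindlimb muscle, was taken from C57BL/6 mice aged 20 months (Old 1 and Old 2) or 3 months (Young 1 and Young 2). The mice were wild type, no source used here gives the sex of each sample, and mRNA-seq was performed to find genes that change in age-related muscle atrophy. Expression was given as FPKM, a count of fragments relative to transcript length and to all mapped fragments, which allows genes of different length to be compared.

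hnRNP proteins coat newly made transcripts and take part in splicing, 3′-end formation, RNA export, mRNA stability and translation. Many bind short sequence patterns and act in competition with SR proteins, a family of serine- and arginine-rich splicing factors, in the choice of exons. In skeletal muscle, alternative splicing shapes the isoforms of contractile proteins, and hnRNP proteins are among the factors that bind these transcripts.

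The 4 libraries fell into pairs that did not follow age. The FPKM values summed to 698130 in Old 1 and 739302 in Young 2, but to 226747 in Old 2 and 251294 in Young 1, so each sample was divided by a factor between 0.680 and 1.47 (median ratio over genes with at least 1 FPKM in all samples). Values after this step are called scaled FPKM. Between Old 1 and Old 2 the log2 ratios of 3127 genes at 10 to 100 FPKM had a robust SD of 0.06 around their median, and between Old 1 and Young 2 this SD was 0.39. The study speaks of independent mRNA-seq experiments, and the series design of replicates in triplicate where the labels here give 2 samples per age, but neither ties a sample to an animal, so the p-values below measure only the spread between these samples, which may be technical. Of 10 myofiber markers, *Ckm*, muscle creatine kinase, was listed at 0 in all samples, *Ttn* (titin) at 0 in Old 1 and Old 2, and *Neb* (nebulin) at 0 in Old 2 and Young 1, whereas *Tnnc2* and *Pvalb*, both of fast fibers, were at 3244 FPKM or more in each sample. An exact 0 in these files may thus be a failed estimate.

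Of the 10 hnRNP genes, 1 was called as different between the ages. *Hnrnpu*, a scaffold protein that binds chromatin and nascent RNA, was higher in old muscle by 1.45-fold (on the log2(scaled FPKM + 1) scale used for the test), and none of the 10 genes was called lower. *Hnrnpl*, *Hnrnph1* and *Hnrnpf* lay lower, with the old samples under the young ones, by 0.16 to 0.25 on the log2 scale, without passing the threshold. The other 6 genes differed by at most 0.20. The median log2 difference of the 10 genes was 0.06, against -0.01 over all 10266 genes tested, and 7 differences were above 0 and 3 below.

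The test was limma on log2(scaled FPKM + 1) with Benjamini-Hochberg adjustment over all genes tested and a threshold of 0.05. All 10 genes passed the filter of at least 1 FPKM in at least 2 samples. In the same fit 5.61% of all genes were called higher and 7.94% lower (13.5% in all), so 1 of 10 called higher and 0 of 10 called lower is a share near the background. At an unadjusted p under 0.05, 1 of the 10 genes was higher and 1 (*Hnrnpl*) was lower, against 16.2% and 17.7% of all genes tested. After scaling, both old samples lay above both young samples for 2 of the 10 genes and below them for 3, and the ages overlapped for 5. Over all genes tested, 27.8% lay above and 28.4% below. These positions depend on the scaling. Under factors taken from genes of at least 10 FPKM in all samples, *Hnrnpa1*, *Hnrnpk* and *Hnrnpc* would no longer overlap, whereas *Hnrnpab* would. With 2 samples against 2, an exact permutation test of a single gene cannot give a two-sided p under 0.333.

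**Figure D1:**
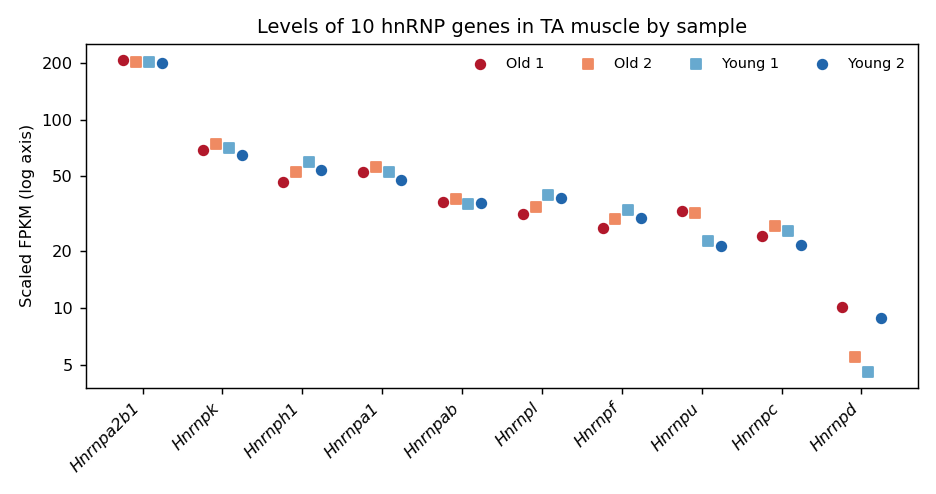
Scaled FPKM (log axis) of the 10 hnRNP genes in each of the 4 samples, ordered by mean level, with 1 point per sample. *Hnrnpa2b1* lies between 199.1 and 207.9 in every sample, *Hnrnpu* is the gene with both old samples (32.6 and 32.1) well above both young samples (22.8 and 21.4), and *Hnrnpd* separates by library pair (circles against squares).

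Sequences upstream of the transcription start of 2 of the genes are shown, because *Hnrnpu* was the gene called and *Hnrnpa2b1* the gene with the highest level. Each is the 250 bases before a RefSeq start (GRCm38.p6, the build of mm10), 5′ to 3′ on the gene's own strand, and neither window overlaps an annotated exon in GENCODE. Capitals mark GC boxes (GGGCGG) and CCAAT boxes (CCAAT), searched on both strands, with overlapping matches counted.
Hnrnpu, chr1:178337816-178338065, minus strand: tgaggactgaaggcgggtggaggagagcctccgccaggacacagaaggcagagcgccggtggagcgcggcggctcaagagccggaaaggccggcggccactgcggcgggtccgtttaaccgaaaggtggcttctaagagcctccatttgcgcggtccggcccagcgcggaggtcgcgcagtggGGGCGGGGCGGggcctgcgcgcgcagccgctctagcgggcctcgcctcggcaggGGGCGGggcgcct
Hnrnpa2b1, chr6:51469895-51470144, minus strand: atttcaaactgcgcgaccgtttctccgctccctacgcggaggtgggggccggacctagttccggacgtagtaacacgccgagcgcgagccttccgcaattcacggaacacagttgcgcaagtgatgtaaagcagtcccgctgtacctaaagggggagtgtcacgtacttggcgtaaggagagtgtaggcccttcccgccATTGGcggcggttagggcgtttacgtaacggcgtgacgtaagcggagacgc
The *Hnrnpu* window had 73.6% G and C and held 3 GC boxes, of which a pair overlap, and 0 CCAAT boxes. The *Hnrnpa2b1* window had 59.6% G and C, and held 0 GC boxes and 1 CCAAT box. The median was 52.4% over 32851 RefSeq promoter windows of the same length, of which 32.7% held a GC box and 33.8% a CCAAT box. Of the 10 genes, 7 had a GC box and 8 a CCAAT box in at least 1 of their windows, and 0 had the letters TATAAA, which 12.4% of all windows held. Counted by window, as the shares of all windows are, 12 of the 18 windows of these genes held a GC box and 12 a CCAAT box. No binding to these windows was measured, and a match of letters is only a description.

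*Hnrnpu* encodes hnRNP U, also called scaffold attachment factor A. The deposited locus lies on chromosome 1 from 178318836 to 178337808 (mm10). Its FPKM was 47.7 and 21.8 in Old 1 and Old 2, and 15.7 and 31.5 in Young 1 and Young 2, which after scaling gave 32.6, 32.1, 22.8 and 21.4. Both old samples were thus above the young ones, and the samples of an age lay close to each other. The log2 difference was 0.53 ± 0.06 (SE, n = 2 per age, limma adjusted p = 0.0311), and 6.92% of all genes tested had a larger one. The ratio was 1.52 for Old 1 over Young 2 and 1.39 for Old 2 over Young 1, the pairs of libraries with like FPKM sums. The call ended when any of the 4 samples was left out, with adjusted p between 0.106 (without Young 2) and 0.275 (without Old 2), while the log2 difference stayed between 0.49 and 0.57. It also ended on FPKM as deposited (adjusted p = 1.00), after quantile normalization (0.069) and in limma without the variance trend (0.0587).

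Another row of the files covers the *Hnrnpu* locus. *Fam36a*, the gene now named *Cox20*, was listed there at 143.8 and 0 FPKM in Old 1 and Old 2, and 0 and 145.1 in Young 1 and Young 2. The value followed the library pair and not age. How fragments were divided between the rows is not given in the sources used here, and the part of this row in the *Hnrnpu* values was not tested.

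*Hnrnpu* took 6.08% and 5.82% of the summed FPKM of the 10 genes in Old 1 and Old 2, and 4.16% and 4.10% in Young 1 and Young 2. Such a share does not depend on the scaling. In order of level it was the 6th and 7th of the 10 genes in the old samples and the 9th in both young samples. The ratio of *Hnrnpu* to *Hnrnpa2b1* was 0.157 and 0.159 in old muscle and 0.112 and 0.108 in young muscle. The ratio of *Hnrnpu* to *Hnrnpl*, a pair chosen after the values were seen, was 1.03 and 0.939 in old muscle against 0.569 and 0.556 in young muscle. The summed scaled FPKM of the 10 genes was 537 and 551 in Old 1 and Old 2, and 548 and 523 in Young 1 and Young 2, with overlap between the ages.

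**Figure D2:**
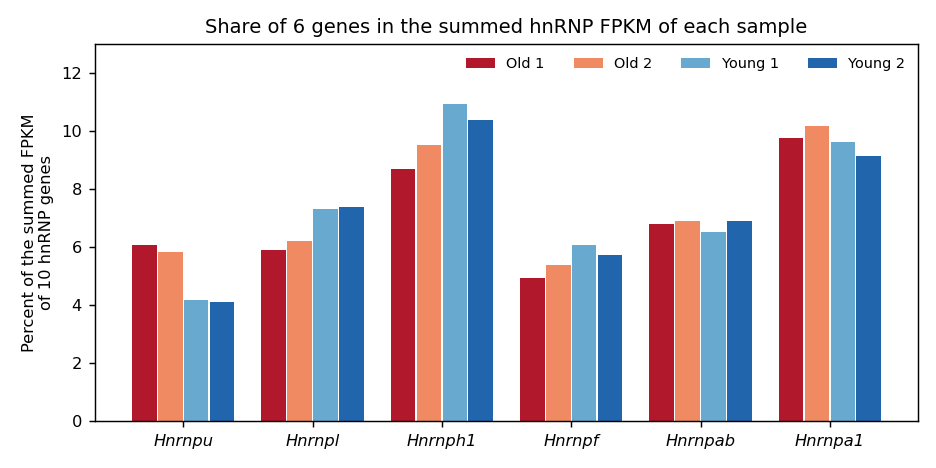
Share (percent) of 6 genes in the summed FPKM of the 10 hnRNP genes, with 1 bar per sample. The share of *Hnrnpu* is higher in both old samples, those of *Hnrnpl*, *Hnrnph1* and *Hnrnpf* are lower, those of *Hnrnpa1* are slightly higher (9.75% and 10.2% against 9.61% and 9.14%), and those of *Hnrnpab* overlap between the ages.

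*Hnrnpl* encodes a protein that binds CA-rich RNA and regulates splicing. The locus lies on chromosome 7 from 28808820 to 28822351. FPKM was 46.3 and 23.2 in Old 1 and Old 2, and 27.6 and 56.7 in Young 1 and Young 2, or 31.7, 34.2, 40.0 and 38.5 after scaling. Both old samples lay below both young samples, and the log2 difference was -0.25 ± 0.07 (SE, limma adjusted p = 0.105). The ratios within library pairs were 0.818 and 0.843. *Hnrnpl* passed the threshold when the scaling used only genes with at least 10 FPKM in all samples (log2 difference -0.24, limma adjusted p = 0.0168). Its share of the summed FPKM was 5.90% and 6.20% in old muscle and 7.31% and 7.38% in young muscle.

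*Hnrnph1* and *Hnrnpf* encode closely related proteins that bind runs of G. *Hnrnph1* (chromosome 11, 50377719 to 50386651) was at 68.2 and 35.6 FPKM in Old 1 and Old 2, and 41.3 and 79.7 in Young 1 and Young 2, or 46.7, 52.4, 59.9 and 54.2 after scaling. *Hnrnpf* (chromosome 6, 117900340 to 117925622) was at 38.9, 20.2, 22.9 and 44.1 FPKM in the same order, or 26.6, 29.7, 33.2 and 29.98 after scaling. For both genes the old samples lay below the young samples, but by little between Old 2 and Young 2. The log2 difference was -0.20 ± 0.10 for *Hnrnph1* (SE, limma adjusted p = 0.281) and -0.16 ± 0.10 for *Hnrnpf* (SE, limma adjusted p = 0.358). Within library pairs the ratios were 0.856 and 0.864 for *Hnrnph1* and 0.881 and 0.881 for *Hnrnpf*. The ratio of *Hnrnpf* to *Hnrnph1* ranged only from 0.553 to 0.569 over the 4 samples.

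The A/B type proteins carry a pair of RNA recognition motifs and a glycine-rich tail. *Hnrnpa2b1* (chromosome 6, 51460435 to 51470510), which encodes hnRNP A2 and B1, had the highest level of the 10 genes in every sample. Its FPKM was 304.0 and 137.1 in Old 1 and Old 2, and 139.7 and 292.7 in Young 1 and Young 2, or 207.9, 201.7, 202.9 and 199.1 after scaling, with overlap between the ages. Within library pairs its ratios were 1.04 and 0.981, and the log2 difference was 0.03 ± 0.06 (SE, limma adjusted p = 0.893). It alone made up 36.6% to 38.7% of the summed FPKM of the 10 genes.

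*Hnrnpa1*, a splicing regulator that promotes exon skipping, was measured in a row (chromosome 15, 103240007 to 103246663) whose label also names *Gm5643*, a processed pseudogene in GENCODE, so reads of near-identical copies may be split or shared there. The FPKM was 76.6 and 38.1 in Old 1 and Old 2, and 36.2 and 70.2 in Young 1 and Young 2, or 52.4, 56.1, 52.6 and 47.8 after scaling. Old 1 and Young 1, of different library pairs, were nearly equal after scaling, and the ages overlapped. Within library pairs the ratios were 1.09 and 1.05. The log2 difference was 0.11 ± 0.08 (SE, limma adjusted p = 0.477). *Hnrnpab*, an A/B type protein that binds RNA and single-stranded DNA, lies on chromosome 11 from 51584757 to 51606908. It was at 53.2 and 25.9 FPKM in Old 1 and Old 2, and 24.6 and 53.1 in Young 1 and Young 2, or 36.4, 38.1, 35.8 and 36.1 after scaling. After this scaling the old samples were the higher ones by a narrow margin, with a log2 difference of 0.05 ± 0.06 (SE, limma adjusted p = 0.679). Within library pairs the *Hnrnpab* ratios were 1.003 and 1.05. The row *Agxt2l2* (now *Phykpl*) covers the same locus and was listed at 15.2, 0.982, 3.47 and 19.4 FPKM in the same order of samples.

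*Hnrnpk*, a KH-domain protein that binds C-rich RNA and DNA, was second in level in every sample. Its locus lies on chromosome 13 from 58391073 to 58411149. FPKM was 100.5 and 50.4 in Old 1 and Old 2, and 48.5 and 95.3 in Young 1 and Young 2, or 68.7, 74.2, 70.4 and 64.8 after scaling. The ages overlapped after scaling, and the log2 difference was 0.08 ± 0.08 (SE, limma adjusted p = 0.635). Within library pairs the ratios were 1.05 and 1.04. *Rmi1*, whose row covers the same locus, was at 6.80 and 0 FPKM in Old 1 and Old 2, and 0 and 5.92 in Young 1 and Young 2.

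*Hnrnpc* encodes a protein that binds U tracts in introns (chromosome 14, 52073380 to 52104028). Its FPKM was 35.3 and 18.6 in Old 1 and Old 2, and 17.6 and 31.9 in Young 1 and Young 2, or 24.1, 27.3, 25.5 and 21.7 after scaling. The ages overlapped after scaling, with a log2 difference of 0.12 ± 0.12 (SE, limma adjusted p = 0.608). Within library pairs the ratios were 1.11 and 1.06.

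*Hnrnpd*, known as AUF1, binds AU-rich elements and acts in mRNA decay. It had the lowest level of the 10 genes, at 14.8 and 3.76 FPKM in Old 1 and Old 2, and 3.15 and 13.1 in Young 1 and Young 2, or 10.1, 5.54, 4.57 and 8.88 after scaling. The samples separated by library pair and not by age. Old 1 exceeded Old 2 by 3.93-fold and Young 2 exceeded Young 1 by 4.14-fold before scaling, whereas these ratios were 1.82 to 2.22 for the other 9 genes. Over 3004 genes at 3 to 10 FPKM the median log2 ratio was 1.11 between Old 1 and Old 2 and 1.09 between Young 2 and Young 1. These medians were 1.49 and 1.43 at 1 to 3 FPKM, and 0.98 and 0.96 at 30 to 100 FPKM. A single factor per sample thus does not match all levels. The log2 difference by age was 0.20 ± 0.43 (SE, limma adjusted p = 0.881), and it turned to -0.18 without Old 1 and to -0.21 without Young 1. Within library pairs, old over young was 1.13 and 1.19. The deposited *Hnrnpd* locus (chromosome 5, 99955936 to 100039567) also takes in a row for its neighbour *Hnrnpdl*, listed as *Hnrpdl*.

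**Figure D3:**
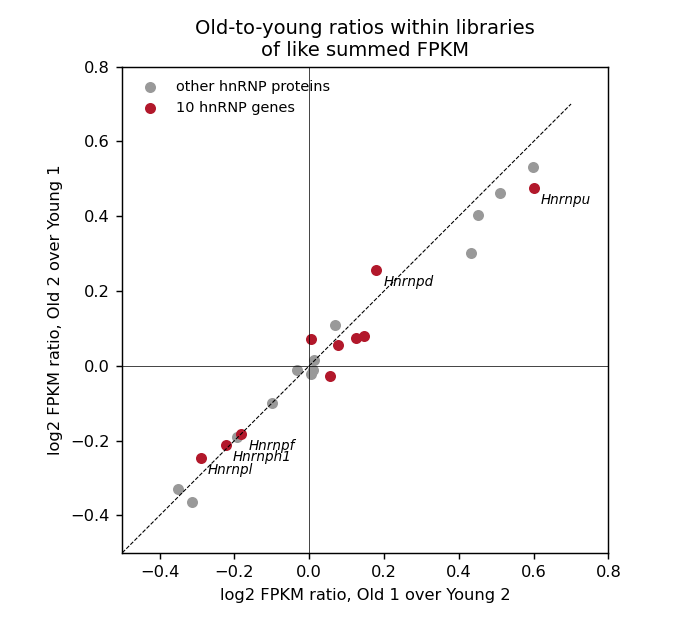
Log2 ratio of old to young FPKM as deposited, for Old 1 over Young 2 (x axis) and Old 2 over Young 1 (y axis), with 1 point per gene (red for the 10 hnRNP genes, grey for other hnRNP genes) and a dashed line of equal ratios. *Hnrnpu* lies at the upper right, and *Hnrnpl*, *Hnrnph1* and *Hnrnpf* lie below 0 on both axes. *Ptbp1*, listed at 0 in Old 2 and Young 1, is not drawn.

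In both library pairs *Hnrnpu* was the hnRNP gene with the highest ratio of the 10. Of the 45 ratios between 2 of the 10 genes, 26 did not overlap between the ages, a share near the 58.3% found over the ratios between all 9293 tested genes above 0 in every sample. *Hnrnpu* took part in 8 such ratios of 9, *Hnrnpf* in 8, *Hnrnph1* and *Hnrnpl* in 7 each, and *Hnrnpd* in 0. These ratios share genes and are not independent, and they are free of the scaling.

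Among 17 other genes of hnRNP proteins, 14 had a value and were tested, while *Hnrnph2*, *Syncrip* and *Rbmx* were not analysed here. By adjusted p 0 of these 14 were called in limma, and at an unadjusted p under 0.05 there were 4 higher and 2 lower, where 16.2% and 17.7% of all genes tested passed. The median log2 difference was 0.01. Both old samples lay above both young samples for 5 genes and below for 2 (27.8% and 28.4% of all genes tested). When the scaling used only genes of at least 10 FPKM, 5 of the 6 genes named next passed the threshold in limma (adjusted p 0.00984 to 0.0218). With that scaling 1454 of all 10266 genes tested were called higher and 1516 lower. The 6 genes were those with an unadjusted p under 0.05 in the same samples, so this count adds no separate support. The 4 higher genes, chosen after their values were seen, were *Hnrnpul2* (log2 difference 0.54 ± 0.11, SE, limma adjusted p = 0.0635) and *Hnrnpul1* (0.42 ± 0.08, adjusted p = 0.0589), which encode proteins related to hnRNP U, together with *Hnrnpr* (0.44 ± 0.08, adjusted p = 0.0518) and *Hnrnpdl* (0.37 ± 0.08, adjusted p = 0.0698). The 2 lower genes were *Pcbp2* (-0.32 ± 0.09, adjusted p = 0.102), a poly(C)-binding protein like hnRNP K, and *Hnrnpa0* (-0.31 ± 0.09, adjusted p = 0.117). *Hnrnpul2* was at 27.9 and 14.5 FPKM in Old 1 and Old 2, and 10.04 and 18.4 in Young 1 and Young 2. The ratio of *Hnrnpu* to *Hnrnpul2* overlapped between the ages, at 1.71 and 1.502 in old muscle and 1.56 and 1.71 in young muscle. That of *Hnrnpu* to *Hnrnpul1* did not, at 1.71 and 1.57 in old muscle and 1.49 and 1.54 in young muscle. Non-overlap was found for 58.3% of the ratios between all tested genes above 0 in every sample. *Ptbp1*, the polypyrimidine tract-binding protein, was listed at 0 in Old 2 and Young 1.

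**Figure D4:**
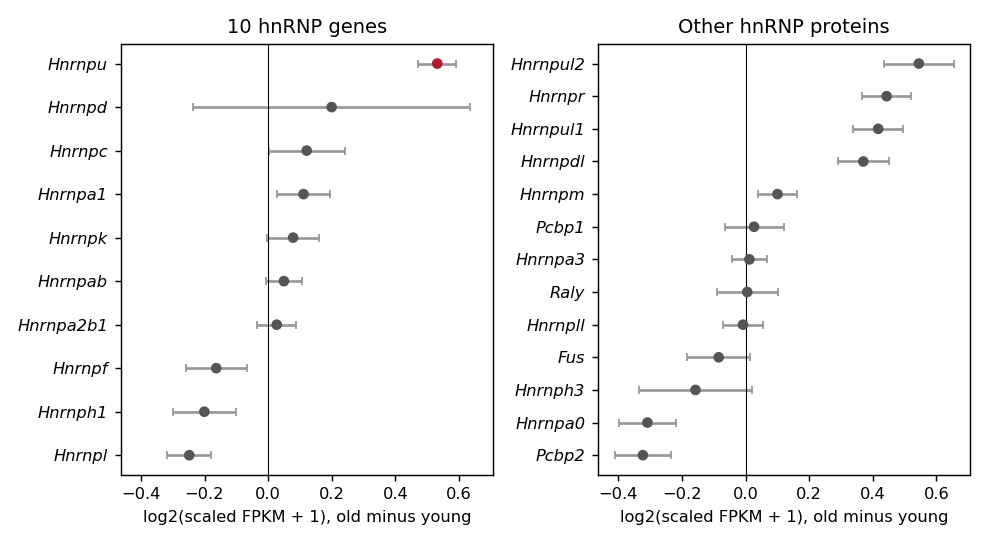
Difference in log2(scaled FPKM + 1), old minus young, of the 10 hnRNP genes (left) and 13 of the 14 other hnRNP genes tested (right, without *Ptbp1*), with bars of 1 SE from limma. The red point is the gene with an adjusted p under 0.05, *Hnrnpu*, at 0.53, and differences in both panels lie on either side of 0.

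SR proteins often act against hnRNP proteins in exon choice. Of 13 SR protein genes, 12 were tested, and 0 were called higher and 2 lower (5.61% and 7.94% of all genes tested). At an unadjusted p under 0.05 there were 2 higher and 6 lower, where 16.2% and 17.7% of all genes tested passed. *Srsf2* had a log2 difference of -0.41 ± 0.06 (SE, limma adjusted p = 0.045) and *Srsf7* of -0.32 ± 0.05 (SE, limma adjusted p = 0.0458). Both calls ended when any of the 4 samples was left out (limma adjusted p 0.219 to 0.396). The median was -0.25, with 3 differences above 0 and 9 below, and both old samples lay below both young samples for 8 of the 12 and above them for 2 (28.4% and 27.8% of all genes tested). The 2 higher genes, named after their values were seen, were *Srsf4* (log2 difference 0.60 ± 0.14, SE, limma adjusted p = 0.0775) and *Srsf11* (0.58 ± 0.19, adjusted p = 0.145), whose differences were larger in size than those of the genes called lower. *Srsf1*, known to counter hnRNP A1 in the choice of splice sites and also named after its values were seen, had a log2 difference of -0.46 ± 0.10 (SE, limma adjusted p = 0.0742). The ratio of *Hnrnpa1* to *Srsf1*, chosen after the values were seen, was 2.89 and 2.76 in old muscle and 1.85 and 1.90 in young muscle, with no overlap. The same held for 58.3% of the ratios between all tested genes above 0 in every sample. The scaled FPKM of *Hnrnpa1* itself overlapped between the ages.

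Among 7 proteins that bind AU-rich elements, as hnRNP D does, 5 were tested, 1 was called higher and 1 lower (5.61% and 7.94% of all genes tested). *Zfp36* (tristetraprolin), which promotes mRNA decay, fell by 1.32 on the log2 scale (SE 0.06, limma adjusted p = 0.0205), from 20.4 and 19.0 scaled FPKM in young muscle to 7.38 and 7.24 in old muscle. *Zfp36l1*, of the same family, rose by 0.39 (SE 0.06, limma adjusted p = 0.0404). Both calls ended on FPKM as deposited, and that of *Zfp36l1* also after quantile normalization (limma adjusted p = 0.237) and with no filter (0.0865). The *Zfp36* call ended without Old 2 (limma adjusted p = 0.164) or Young 1 (0.118), and the *Zfp36l1* call ended when any of the 4 samples was left out (0.120 to 0.325). Of 7 genes for the nuclear import of hnRNP proteins or for arginine methylation, which hnRNP proteins carry, 5 were tested and 0 were called in either direction in limma, also at an unadjusted p under 0.05. Their median log2 difference was 0.06.

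Other transcripts moved with age in the same samples. Over all genes tested, limma called 5.61% higher and 7.94% lower. At an unadjusted p under 0.05 these shares were 16.2% and 17.7%. All 5 slow fiber markers with a value rose, with a median log2 difference of 3.69, and their summed scaled FPKM was 619 to 798 in old muscle and 40.6 to 49.6 in young muscle. *Hba-a1*, a hemoglobin gene and the only erythroid marker of 4 with a value, rose by 2.79, in a row whose label also names *Hba-a2*. Among fibroblast markers 3 of 6 fell (*Col1a1*, *Col1a2* and *Col3a1*), and the list summed to 123 to 136 in old and 178 to 192 in young muscle. Both old samples lay below both young samples for 4 of these 6 and above them for 2 (28.4% and 27.8% of all genes tested). *Dcn*, of the highest level in this list, was among the 2, at 81.9 and 91.1 scaled FPKM in old muscle and 74.0 and 65.9 in young muscle. *Lyz2* of 4 leukocyte markers tested and *Tie1* of 5 endothelial markers fell, while 0 of 2 satellite cell, 0 of 4 adipocyte and 0 of 9 myofiber markers were called in limma, and at an unadjusted p under 0.05 the calls in these lists were 1 adipocyte marker higher and 1 myofiber marker lower, which was *Ttn* with its listed values of 0 in both old samples. Summed scaled FPKM in old against young muscle was 10.6 to 13.3 against 17.0 to 20.0 for leukocyte markers and 46.4 to 50.2 against 54.9 to 60.6 for endothelial markers. Most of the leukocyte sum was *Lyz2* (9.89 and 9.22 in Old 1 and Old 2, 14.7 and 15.1 in Young 1 and Young 2). For the 3 other leukocyte markers tested the ages overlapped. Of the 5 endothelial markers, both old samples lay below both young samples for 3 (28.4% of all genes tested). The ages overlapped for 2, *Kdr* (log2 difference 0.03) and *Tek* (0.01), named after their values were seen. Of the markers of these other cell types with a value, only *Cfd*, of adipocytes, was listed at 0, in Old 2 and Young 1. The 15 calls in these and the other lists outside the 10 hnRNP genes became 10 without Old 1, 1 without Old 2, 0 without Young 1 and 11 without Young 2, and all kept their direction. The part of these transcripts in the *Hnrnpu* difference was not tested. In whole muscle, more cells or fibers of a type and more mRNA per cell cannot be told apart.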

How the data were processed

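mRNA-seq values of 4 TA muscle samples were used, grouped by the age in the sample labels. The authors trimmed reads, removed PCR duplicates, aligned them to mm10 with TopHat2 2.0.10 (at most 2 mismatches) and deposited FPKM values per RefSeq locus from Cufflinks. The tools named in the submitters' processing notes include Cuffdiff 2.1.1. The depth of the samples is unknown, since FPKM holds no counts. An incomplete last line per sample was dropped, as were 542 loci that lacked a value in some sample. The values end on chromosome 7 or 8 in text order.

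FPKM was scaled by median ratio and tested as log2(scaled FPKM + 1) with limma 3.58.1 (lmFit, eBayes with trend) in R 4.3.3, two-sided, for genes that reached 1 FPKM in 2 or more samples. Fold changes are on this scale and understate those of low genes. The fit was tested on simulated data. Locus starts, which count from 0 in the files, were raised by 1. Python 3.11.15, pandas 2.3.3 and matplotlib 3.10.9 made the tables and figures.

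The members and lists were chosen with earlier results of these data known. Named were all 10 hnRNP genes, members of other lists past the threshold, members listed at 0 or without a value, and markers of high FPKM. One list of markers is not reported here. Other names are said to be chosen after their values were seen. Alternatives changed the scaling, pseudocount, filter, loci per symbol, variance trend, block, fold minimum and samples.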

Additional observations from a re-analysis of the deposited data

How the results depend on the processing

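*Hnrnpu* kept its direction under 14 alternatives and its call under 6 of them, and the call also ended with a fold minimum of 1.5, a further alternative. Its log2 difference was 0.49 to 0.57. The genes called higher and lower in old muscle (576 and 815) became 18 and 13 on FPKM as deposited, 89 and 136 after quantile normalization, 1454 and 1516 with scaling on genes of at least 10 FPKM, 114 and 202 with no filter, 1222 and 1302 when every sample had to reach 1 FPKM, 103 and 181 with no trend, and 332 and 464 with a minimum of 1.5-fold. The hnRNP genes called higher (1) became 0 as deposited, after quantile normalization, with no trend and with the 1.5-fold minimum, and those called lower (0) became 1 with the scaling on at least 10 FPKM. With 1 sample left out, 0 to 259 genes were higher and 2 to 339 lower, 0 hnRNP genes were higher each time, and the hnRNP median was 0.016 to 0.043. The lone sample was then assumed to vary like the other age. The median over all genes tested was -0.105 without Old 1, 0.095 without Old 2, -0.103 without Young 1 and 0.091 without Young 2. The hnRNP median thus lay above that of all genes without Old 1 or Young 1. It lay below that of all genes without Old 2 or Young 2, so its side was not stable. The *Hnrnpd* difference reversed to -0.18 without Old 1 and -0.21 without Young 1, with a range of -0.21 to 0.61, and no other hnRNP gene reversed under any alternative. The causes of these changes were not tested.

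The sample numbers did not pair the samples, since same-numbered deviations correlated at -0.90 over 10266 genes. With the replicate number as a block, 24 genes were higher and 21 lower, with 0 hnRNP genes higher, and the *Hnrnpu* adjusted p was 0.280 in limma. The crossed numbers (Old 1 with Young 2) as a block, chosen after seeing the data, gave 3242 genes higher and 3503 lower, with 5 hnRNP genes higher and 3 lower. The 15 calls in other lists, recomputed after seeing the data, became 5 as deposited, 10 after quantile normalization, 10 with no trend, 10 with no filter, 6 with the replicate block and 14 with the scaling on at least 10 FPKM. Of 9 uncalled genes of other lists named with a test, 7 passed with that scaling, 6 when every sample had to reach 1 FPKM, 1 with a pseudocount of 0.1, 1 with the highest locus per symbol and 9 with the crossed block. Without counts, no error from sequencing depth could be given.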
